A study of Mus musculus with 12 samples.

Results

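The genes described here are 41 enzymes, transporters and accessory proteins of fatty acid beta-oxidation, 41 of the 13267 genes in a liver transcriptome table. They were chosen by symbol, through the GENCODE M21 annotation of the Ensembl transcript ID that names each row, and every symbol matched 1 row. By textbook location 17 are mitochondrial, 15 peroxisomal, 5 found in both organelles (dual location) and 4 are long-chain acyl-CoA synthetases, which activate fatty acids on several membranes. The samples are liver tissue, rinsed and frozen, from C57BL/6 mice in which a high-fat diet had first induced obesity and a fatty liver. In the control group a scaffold pellet was given under the skin, and in the other group the pellet delivered 4-hydroxyphenylacetic acid (4-HPAA), a small phenolic acid, also a microbial product of plant polyphenols, and both ran for 6 weeks. Each group holds 6 liver samples, called livers here, all from mice on the obesity protocol, so neither is lean. The labels give no sex, age or dose, and number the samples without naming their animals, so a p-value here covers only the spread among these samples, which may be technical. The comparison asks how liver transcripts differ with 4-HPAA, and here also whether mitochondrial and peroxisomal enzymes differ in the same way.

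Beta-oxidation shortens a fatty acid by a pair of carbons per round, through a dehydrogenation, a hydration, a further dehydrogenation and a thiolytic cleavage. Mitochondria take long-chain fatty acids as carnitine esters, burn them to acetyl-CoA and pass the electrons to the respiratory chain through electron transfer flavoprotein. Peroxisomes handle substrates that mitochondria cannot, such as very long-chain, dicarboxylic and methyl-branched fatty acids and bile acid precursors, and then export the shortened chains. In rodent liver many of these genes are switched on by PPAR-alpha, a nuclear receptor that binds fatty acids.

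The values are the authors' normalised read counts, summing to between 22869813 and 25255447 per library. The reads counted to the genes of the table were estimated from the spacing of low values. They numbered 23954096 to 26924668 in controls and 22389551 to 25922067 in 4-HPAA livers. This depth, which is not the total sequenced, overlapped but was lower in several 4-HPAA libraries. Of 12 hepatocyte marker symbols, Tf matched no row, and other symbols for that gene were not tried. The other 11 markers were in the table, so the labelled tissue carries its markers. Their summed values were 2743476 to 3361148 in controls and 2415232 to 3110618 with 4-HPAA. Of the 11, 4 had negative differences. At an unadjusted p under 0.05, 2 were lower and 4 higher, against 7.56% and 7.26% of all genes (limma). All 12 stellate cell and fibroblast markers had negative differences and 8 were lower at that p, to be read against the same 7.56%. Their sums were 10113 to 15641 in controls and 6259 to 11991 with 4-HPAA. Of 10 endothelial markers 9 were negative and 3 were lower at that p. Of 8 adipocyte markers 3 were in the table (Cfd, Fabp4 and Cidea), all lower at an unadjusted p under 0.05, with sums of 483 to 1576 and 153 to 675. Adipoq, Lep, Plin1, Plin4 and Retn were not in the table, so the 3 are not taken as a sign of adipocytes. In whole tissue, fewer cells of a type and less RNA per cell cannot be told apart. The part of these cell types in the differences below was not tested.

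As the values were deposited, most of the 41 genes lay slightly lower in 4-HPAA livers and a few lay much lower. With the estimated reads in the fit that majority was gone. The log2 difference (4-HPAA minus control, on the log2(value + 1) scale) was negative for 30 genes and positive for 11, with a median of −0.09, against −0.00 over all 12720 genes tested, of which 50.2% were negative. No gene passed limma's test with Benjamini-Hochberg adjustment over all genes: the count was 0 of 41 members and 0.0% of all genes, and the smallest adjusted p among the members was 0.149 (limma). At an unadjusted p under 0.05, 11 members (26.8%) were lower, against 7.56% of all genes, and 3 were higher, against 7.26% of all genes (limma). No member's groups were free of overlap, which 0.354% of all genes were on the lower side and 0.307% on the higher. With the log2 of the estimated reads as a covariate, added after the data were seen, 19 of the 41 differences were negative, with a median over all genes of −0.00. In that fit 3 members were lower against 5.41% of all genes, and 3 were higher against 4.82% (limma). As the estimated reads were lower in several 4-HPAA libraries, that fit can assign part of a group difference to depth. Depth and treatment are therefore not fully told apart by either fit. With 1 library left out, 6 to 13 members were lower, and the share of all genes changed too (limma). The count was 6 without control replicate 1, 2 or 4, against 7.8%, 6.29% and 5.55% of all genes. It was also 6 without 4-HPAA replicate 1 or 5, against 5.66% and 6.24%. It was 7 without control replicate 3 or 4-HPAA replicate 2, against 6.2% and 5.85%.

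**Figure D1:**
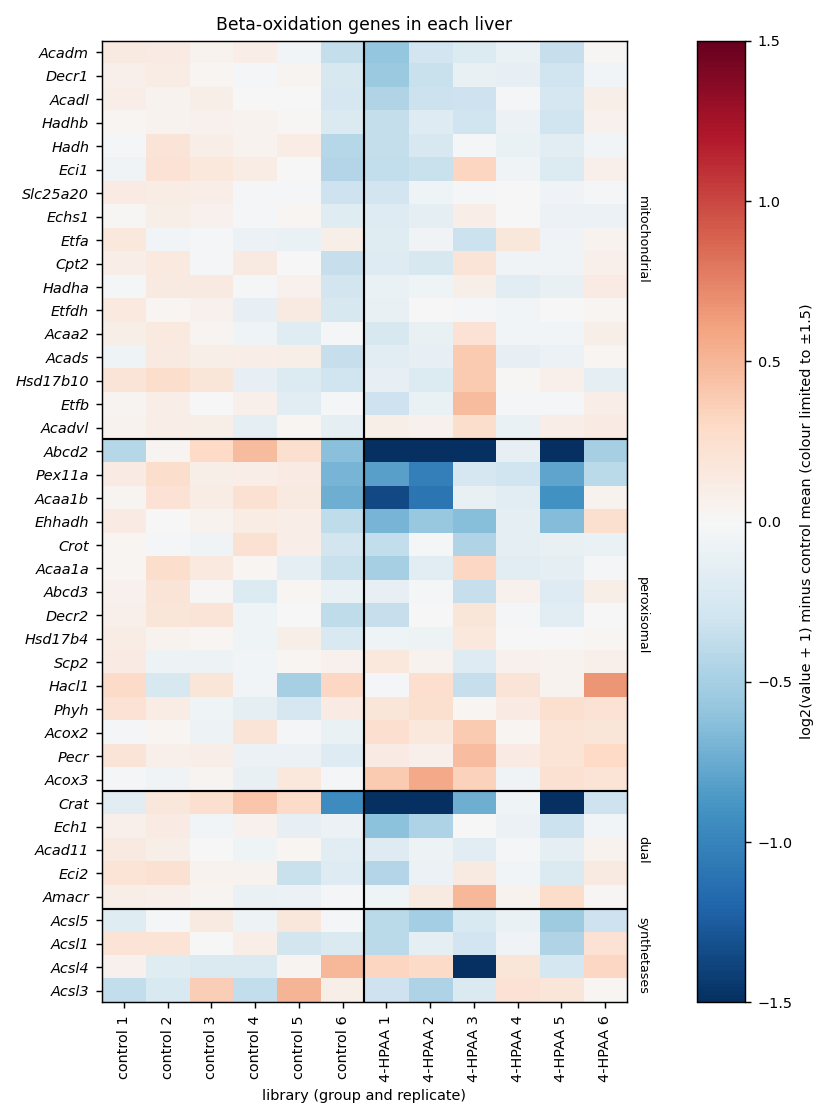
Each row is a gene, each column a liver, and the colour is log2(value + 1) minus the gene's control mean, with colours limited to 1.5 either way. Abcd2 and Crat are darkest in 4-HPAA replicates 1, 2 and 5, Abcd2 also in replicate 3, and control replicate 6 is blue in many of the rows that are blue in replicates 1, 2 and 5.

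**Figure D2:**
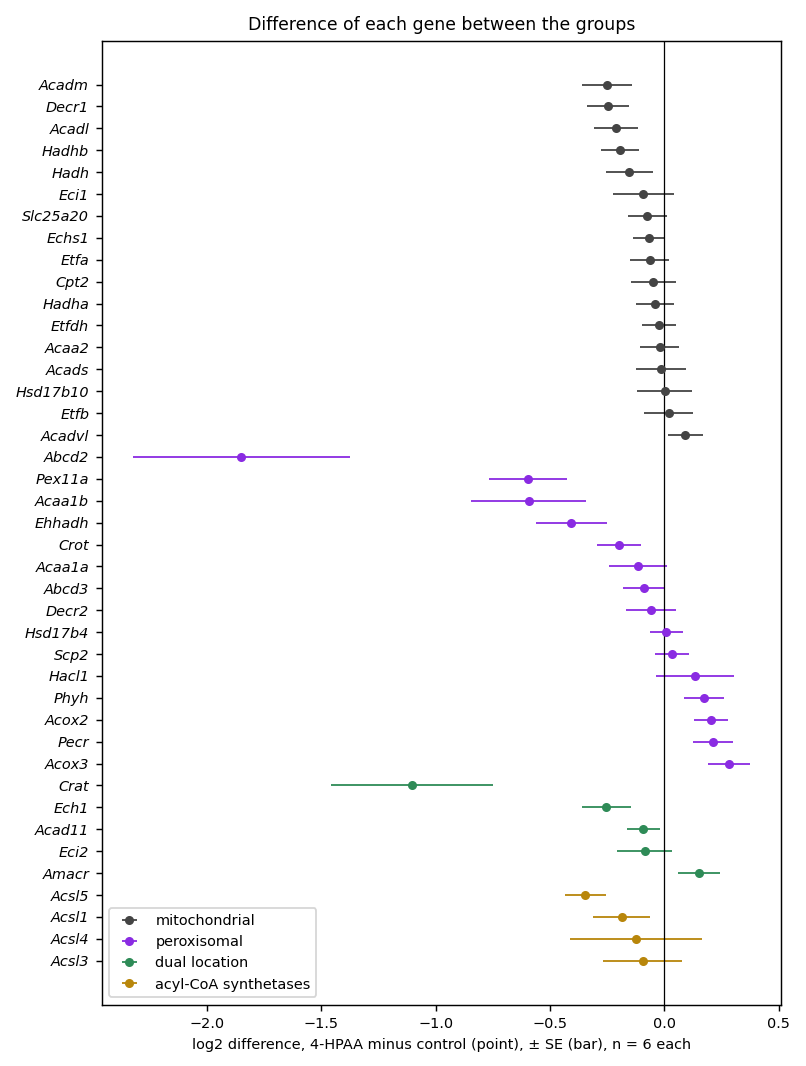
Points are log2 differences (4-HPAA minus control) from limma and bars their SE, with 6 livers a group, by location class. Mitochondrial genes lie between −0.25 and 0.09, while peroxisomal genes spread from −1.85 to 0.28.

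Mitochondrial and peroxisomal enzymes had nearly the same median but a very different spread. As deposited, the median log2 difference was −0.06 over the 17 mitochondrial genes, of which 14 were negative, and −0.06 over the 15 peroxisomal genes, of which 8 were negative. With the depth covariate 5 of the 17 mitochondrial genes were negative and their median turned to 0.025, while 8 of the 15 peroxisomal genes were negative with a median of −0.032. As deposited, the mitochondrial median minus the peroxisomal median was −0.005, and it took either sign when libraries were left out, from −0.058 without 4-HPAA replicate 3 to 0.026 without 4-HPAA replicate 2. No mitochondrial gene differed by more than 0.5 on the log2 scale, while 3 peroxisomal genes did, against 1021 of all 12720 genes tested. At an unadjusted p under 0.05 there were 4 lower and 0 higher mitochondrial genes, and 4 lower and 3 higher peroxisomal genes, against 7.56% lower and 7.26% higher of all genes (limma). With the depth covariate none of the 4 mitochondrial genes, Acadl, Acadm, Hadhb and Decr1, was under that p, their smallest being 0.179 for Hadhb (limma). Per liver, the median deviation of the mitochondrial genes from the control mean ran from −0.250 to 0.113 in controls and from −0.238 to 0.088 with 4-HPAA, so the groups overlapped throughout. That of the peroxisomal genes ran from −0.227 to 0.080 and from −0.119 to 0.073. As a share of all values, mitochondrial genes took 0.611% ± 0.0395 in controls and 0.569% ± 0.0568 with 4-HPAA, and peroxisomal genes 1.19% ± 0.0548 and 1.13% ± 0.0731 (SD over 6 livers a group).

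The peroxisomal genes can be sorted by substrate into a negative and a positive group. The sorting uses textbook roles but was made after the values were seen, so the signs, medians and values per liver of the groups only describe genes chosen for that pattern and have no test. Negative differences were found for all 8 genes of straight-chain import, oxidation, export and organelle growth (Abcd2, Abcd3, Pex11a, Ehhadh, Acaa1a, Acaa1b, Crot and Decr2), with a median of −0.30. Positive differences were found for all 7 genes of methyl-branched chains, bile acid precursors and phytanate (Acox2, Acox3, Hsd17b4, Scp2, Pecr, Phyh and Hacl1), with a median of 0.17; Hsd17b4 turned negative when libraries were rescaled to equal upper quartile, equal totals or a common median, with array weights, and without control replicate 4 or 6 or 4-HPAA replicate 3. With the depth covariate 6 of the 8 were negative, with a median of −0.15, and 5 of the 7 positive, with a median of 0.085. Hsd17b4 and Abcd3 also act on the other kind of substrate. Per liver, the branched-chain group ran from −0.062 to 0.118 in controls and from 0.065 to 0.208 with 4-HPAA, and overlapped through control replicate 1 and 4-HPAA replicate 4. The straight-chain group ran from −0.381 to 0.187 in controls and from −0.597 to −0.014 with 4-HPAA; control replicate 6 was the only control below 4-HPAA replicate 6.

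**Figure D3:**
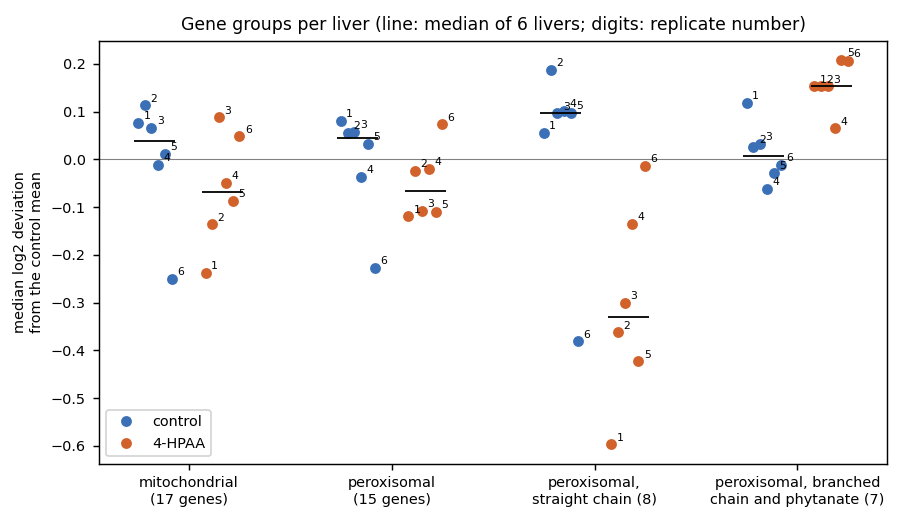
Each point is a liver, and its height the median over a group's genes of log2(value + 1) minus the control mean. In the straight-chain group control replicate 6 sits at −0.381, among the 4-HPAA livers, while the other controls lie above 0; in the branched-chain group all 6 4-HPAA livers lie above 0. Both peroxisomal subgroups were formed after the values were seen.

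Abcd2, a transporter that brings very long-chain acyl-CoA into peroxisomes, had the largest difference of the 41. The gene (chr15:91145871-91191799, minus strand, GRCm38) had normalised read counts of 636 at the lowest, 1085.5 at the median and 1367 at the highest in controls, and of 135, 186 and 905 with 4-HPAA. In 4-HPAA replicates 1, 2, 3 and 5 it lay at 135, 160, 212 and 139, below every control, while replicate 4, at 905, and replicate 6, at 696, were inside the span of the controls. The log2 difference was −1.85 ± 0.47 (SE), a 0.277-fold level, with an unadjusted p of 0.00194 and an adjusted p of 0.157 (limma). It passed without 4-HPAA replicate 4 (adjusted p = 0.0227, limma, within 0.0227 to 0.333 with 1 library left out). The difference was −1.25 with the depth covariate.

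Pex11a, which elongates peroxisomes before they divide, showed the next largest peroxisomal difference. Its counts (gene at chr7:79735957-79743131, minus strand) were 3058, 5353 and 5967 at the lowest, median and highest in controls, and 2445, 3305 and 4159 with 4-HPAA. All 6 4-HPAA livers lay below the control mean, and only control replicate 6, at 3058, overlapped them. The log2 difference was −0.60 ± 0.17 (SE), with an adjusted p of 0.183 (limma); with array weights the adjusted p was 0.0404, and over libraries left out in turn it ran from 0.0809 to 0.368. The difference was −0.31 with the depth covariate. Abcd3, another peroxisomal transporter of acyl-CoA, was nearly level at −0.09 ± 0.09.

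Ehhadh, the bifunctional hydratase and dehydrogenase of the straight-chain pathway, split the 4-HPAA livers. Its counts were 5904, 8103 and 8372 in controls and 4742, 5068 and 9099 with 4-HPAA (lowest, median, highest). Replicates 1, 2, 3 and 5 lay at 4742 to 5198, below every control, whereas replicate 6 was the highest of all 12 livers. The log2 difference was −0.41 ± 0.16 (SE; limma, adjusted p = 0.252), and −0.27 with the depth covariate.

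The peroxisomal thiolases Acaa1a and Acaa1b, which cleave the last intermediate of each round, are close copies. Their longest annotated transcripts below 2000 bases, 1762 and 1689 bases long, were 96.6% identical over 1428 aligned bases. Of the 50-base words of Acaa1b, 35.5% also occur in Acaa1a. Reads shared by both could be divided between them or left out, and the authors' counting settings are not known here. Acaa1b, the more abundant copy, had counts of 24758, 44768 and 48023 in controls and 16121, 29329 and 42814 with 4-HPAA (lowest, median, highest), a log2 difference of −0.59 ± 0.25 (SE; limma, adjusted p = 0.298), which was −0.14 with the depth covariate. Acaa1a, with counts of 6968, 8952 and 10519 in controls and 6228, 7903 and 10923 with 4-HPAA, differed by −0.11 ± 0.13, its groups overlapping almost wholly. Of the printed windows before their starts, that of Acaa1a holds 3 GC boxes and that of Acaa1b holds 0, and each holds 1 CCAAT box.

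These windows are shown because the copies are close in transcript sequence, while the printed bases before their starts differ in GC boxes. Beside them stands that of Ehhadh, on the lower side, and of Acox3, on the higher side. Each is the 120 bases before the RefSeq start in GRCm38.p6, 5′ to 3′ on the gene's strand, with GC boxes (GGGCGG) and CCAAT boxes, on either strand, in capitals.
Acaa1a, chr9:119341174-119341293, plus strand: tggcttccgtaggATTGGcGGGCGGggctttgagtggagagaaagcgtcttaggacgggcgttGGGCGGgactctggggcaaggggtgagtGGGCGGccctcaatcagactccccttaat
Acaa1b, chr9:119157094-119157213, minus strand: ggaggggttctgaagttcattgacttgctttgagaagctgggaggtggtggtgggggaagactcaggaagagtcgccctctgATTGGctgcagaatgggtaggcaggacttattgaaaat
Ehhadh, chr16:21787835-21787954, minus strand: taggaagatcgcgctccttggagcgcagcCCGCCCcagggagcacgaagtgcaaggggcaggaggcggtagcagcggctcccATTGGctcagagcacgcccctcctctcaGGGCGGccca
Acox3, chr5:35582914-35583033, plus strand: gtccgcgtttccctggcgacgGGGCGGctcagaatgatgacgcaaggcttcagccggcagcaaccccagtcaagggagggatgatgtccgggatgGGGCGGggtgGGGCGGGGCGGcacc

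Over the full RefSeq windows, 250 bases before to 50 after a start, 35 of the 41 genes had an entry. The shares of all symbols below are not limited to the genes of the table, so they are not those of liver genes alone. A GC box was found in 27 of the 35 (77.1%), against 38.2% of all 27025 symbols with a window, in 12 of 15 mitochondrial and 9 of 13 peroxisomal genes. The letters CCAAT, on either strand, occurred in 17 (48.6%), against 41.1% of all symbols. TATAAA, on either strand, occurred in 0 of the 35, against 15.7%. The pair AGGNCA and AGGNCA, 1 base apart, on either strand, the form of element that PPAR-alpha binds with its partner RXR, was in 0 of the 35 windows and in 0.451% of all symbols; it says only that these letters are not in these windows.

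Crot, which links medium-chain products to carnitine for export from the peroxisome, ran from 9175 to 13079 in controls and from 8182 to 10931 with 4-HPAA. All 6 4-HPAA livers lay below the control mean, and the log2 difference was −0.20 ± 0.10 (SE; limma, unadjusted p = 0.0603). Decr2, an auxiliary reductase for unsaturated chains, was at −0.06 ± 0.11.

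On the higher side stood the oxidases and reductase of branched chains. They are the 3 of 41 members higher at an unadjusted p under 0.05, about the share of all genes, 7.26% (limma). With median centring 1 member was higher at that p, against 5.75% of all genes. Acox3, the pristanoyl-CoA oxidase, was the least abundant member per exonic length in controls. It had counts of 767, 819.5 and 922 in controls and 801, 1012 and 1233 with 4-HPAA (lowest, median, highest). In 5 of 6 4-HPAA livers it lay above every control, replicate 4 being the exception. The log2 difference was 0.28 ± 0.09 (SE; limma, unadjusted p = 0.00901, adjusted p = 0.206), and 0.24 with the depth covariate. An antisense gene, 4931431C16Rik, is annotated across its start, and the sources used here do not say whether reads were counted by strand.

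Acox2, the oxidase for bile acid precursors and branched chains, had counts of 3895, 4122 and 4787 in controls and 4262, 4786.5 and 5501 with 4-HPAA. All 6 4-HPAA livers lay above the control mean, 3 of them above every control, with a log2 difference of 0.20 ± 0.08 (SE; limma, unadjusted p = 0.0172, adjusted p = 0.239). Pecr, a peroxisomal trans-2-enoyl-CoA reductase, had counts of 4742, 5423 and 6174 in controls and 5707, 6092 and 7446 with 4-HPAA, again all 6 above the control mean, and differed by 0.21 ± 0.09 (limma, unadjusted p = 0.0268, adjusted p = 0.273). The differences with the depth covariate were 0.23 for Acox2 and 0.28 for Pecr.

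Phyh and Hacl1 carry out alpha-oxidation of phytanate, the step that makes this chlorophyll-derived fatty acid fit for beta-oxidation. Phyh was the most abundant of the 41 genes per exonic length, at 1272 ± 119 (controls) and 1401 ± 67.0 (4-HPAA) per 1000000 counts and per kilobase of exon (SD over 6 livers). Its counts were 49245, 59669 and 68033 in controls and 59855, 67174 and 69344 with 4-HPAA, and its log2 difference was 0.17 ± 0.09 (SE; limma, unadjusted p = 0.0642), which was 0.069 with the depth covariate. Hacl1 differed by 0.13 ± 0.17. Scp2, which holds the branched-chain thiolase, and Hsd17b4, the multifunctional hydratase and dehydrogenase of bile acid precursors, were at 0.03 ± 0.07 and 0.01 ± 0.07. With the depth covariate Hacl1 and Scp2 were on the negative side, at −0.032 and −0.044.

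**Figure D4:**
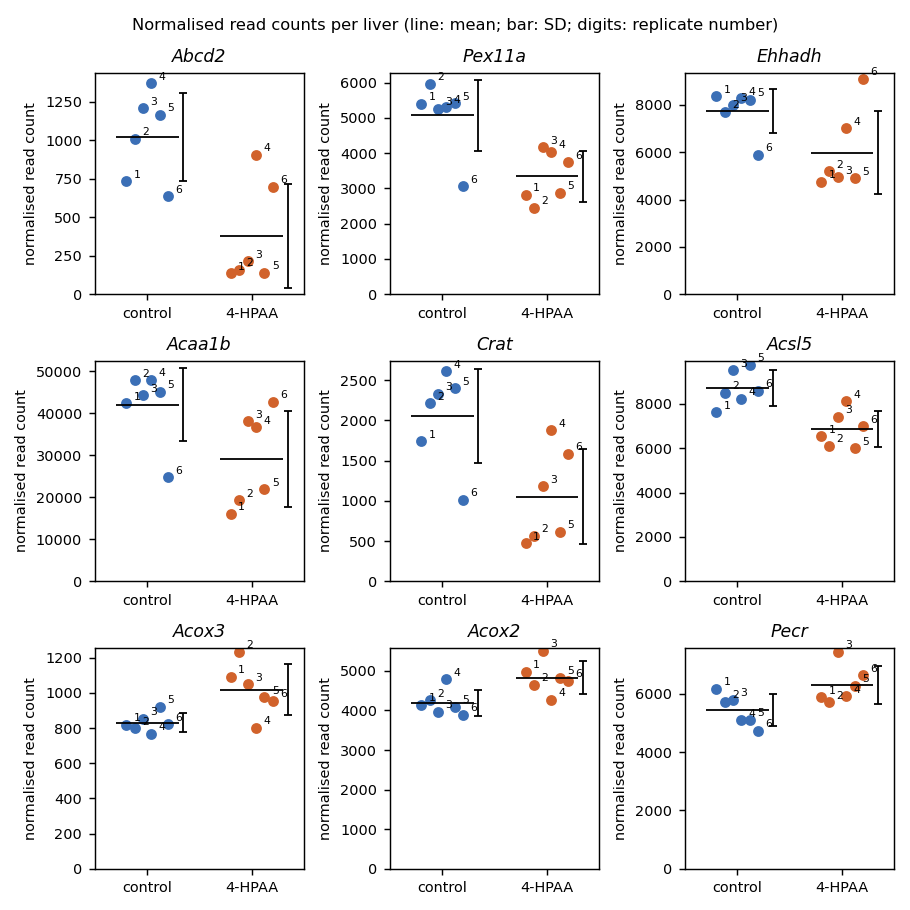
Normalised read counts of 9 genes in each liver, with the replicate number beside each point, the mean as a line and the SD as a bar. For Abcd2 and Crat, 4-HPAA replicates 4 and 6 sit inside the control range, and for Acox3 replicate 4 does.

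Among the mitochondrial genes, the lower ones were the dehydrogenases of long and medium chains, the thiolase subunit of the trifunctional protein and an auxiliary reductase. Acadm, the medium-chain acyl-CoA dehydrogenase, had counts of 9042, 12212 and 12669 in controls and 7780, 9766.5 and 11701 with 4-HPAA, a log2 difference of −0.25 ± 0.11 (SE; limma, unadjusted p = 0.0361, adjusted p = 0.302). Acadl, for long chains, differed by −0.21 ± 0.10, with 4 of 6 4-HPAA livers below every control. Acads, for short chains, was at −0.01 ± 0.11, and Acadvl, for very long chains, at 0.09 ± 0.08.

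Decr1, the reductase needed for polyunsaturated chains, had counts of 7188, 8673 and 9142 in controls and 5760, 7326.5 and 8238 with 4-HPAA. All 6 4-HPAA livers were below the control mean, and the log2 difference was −0.25 ± 0.09 (SE; limma, unadjusted p = 0.0199, adjusted p = 0.252). Eci1, the isomerase for unsaturated chains, was at −0.09 ± 0.13. Acadm was at −0.12, Acadl at −0.12 and Decr1 at −0.11 with the depth covariate.

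Hadha and Hadhb encode the subunits of the trifunctional protein, which runs the steps after the first for long chains. They lie head to head on chromosome 5, with 85 bases between their outermost GENCODE starts, shown here as the stretch that the pair of genes shares (GRCm38, plus strand, GC boxes in capitals).
Hadha and Hadhb, chr5:30155163-30155247: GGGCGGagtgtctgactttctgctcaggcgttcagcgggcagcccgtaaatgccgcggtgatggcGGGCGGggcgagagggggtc
Hadhb had counts of 4409, 5253 and 5344 in controls and 4000, 4312.5 and 5329 with 4-HPAA, a log2 difference of −0.20 ± 0.08 (SE; limma, unadjusted p = 0.0329, adjusted p = 0.292), which was −0.13 with the depth covariate. Hadha, from the other side of these bases, had counts of 7931, 9752.5 and 10563 in controls and 8569, 9075.5 and 10440 with 4-HPAA, and differed by −0.04 ± 0.08. The difference between the partners was not tested.

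The remaining mitochondrial genes were closer to level. Acaa2, the mitochondrial thiolase and the most abundant mitochondrial member per exonic length, had counts of 27453, 31234 and 34435 in controls and 26381, 30228 and 36242 with 4-HPAA, a log2 difference of −0.02 ± 0.09. Hadh, the dehydrogenase of medium and short chains, was at −0.15 ± 0.10 and Echs1, the short-chain hydratase, at −0.07 ± 0.07. Hsd17b10, which oxidises branched short-chain intermediates, was at 0.00 ± 0.12. The carnitine carrier Slc25a20 and the inner carnitine palmitoyltransferase Cpt2 were at −0.07 ± 0.08 and −0.05 ± 0.10. The electron carriers Etfa, Etfb and Etfdh were at −0.06 ± 0.09, 0.02 ± 0.11 and −0.02 ± 0.08. Acads, Etfb, Etfdh, Acaa2 and Hsd17b10 changed sign when some libraries were left out.

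Of the dual location genes, Crat stood apart. This carnitine acetyltransferase, which moves acetyl and short acyl groups between CoA and carnitine, had counts of 1018, 2271 and 2613 in controls and 474, 898.5 and 1876 with 4-HPAA (chr2:30400471-30415813, minus strand). Replicates 1, 2 and 5 lay at 474, 565 and 616, below every control, while replicate 3 at 1181, replicate 4 at 1876 and replicate 6 at 1589 were inside the span of the controls. The log2 difference was −1.10 ± 0.35 (SE), a 0.466-fold level (limma, unadjusted p = 0.00833, adjusted p = 0.206), and −0.47 with the depth covariate.

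Ech1, a dienoyl-CoA isomerase, was the most abundant dual location gene per exonic length. Its counts were 10360, 11361 and 12313 in controls and 7345, 9866.5 and 11338 with 4-HPAA, a log2 difference of −0.25 ± 0.11 (SE; limma, unadjusted p = 0.0326, adjusted p = 0.291), which was −0.11 with the depth covariate. Amacr, the racemase that prepares methyl-branched chains for oxidation, had counts of 3312, 3592 and 3782 in controls and 3406, 3799.5 and 5030 with 4-HPAA, and was on the higher side at 0.15 ± 0.09. Acad11 and Eci2 were at −0.09 ± 0.07 and −0.09 ± 0.12.

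Acyl-CoA synthetases activate fatty acids before either organelle can use them. Acsl5, which also feeds triglyceride synthesis, had the smallest p of the 41 genes. It had counts of 7607, 8539 and 9750 in controls and 5995, 6755 and 8106 with 4-HPAA (chr19:55251938-55297720, plus strand), and 5 of 6 4-HPAA livers lay below every control, replicate 4 being the exception. The log2 difference was −0.35 ± 0.09 (SE; limma, unadjusted p = 0.00173, adjusted p = 0.149). Its adjusted p was 0.0478 with array weights and 0.0427 without 4-HPAA replicate 4, within 0.0427 to 0.322 over all libraries left out in turn (limma). The difference with the depth covariate was −0.23.

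Acsl1, the main liver synthetase and the most abundant of the 4 per exonic length, had counts of 27248, 34047 and 38012 in controls and 24104, 28508 and 38242 with 4-HPAA, a log2 difference of −0.19 ± 0.12. Acsl3, a lipid droplet synthetase, had counts of 698, 864.5 and 1285 in controls and 653, 849.5 and 1048 with 4-HPAA, and was at −0.10 ± 0.17. Acsl4, which prefers arachidonate, was at −0.13 ± 0.29, with a count of 514 in 4-HPAA replicate 3 against 1288 to 1926 in the other 4-HPAA livers; without that library the difference was 0.17, and with the depth covariate it was −0.50.

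**Figure D5:**
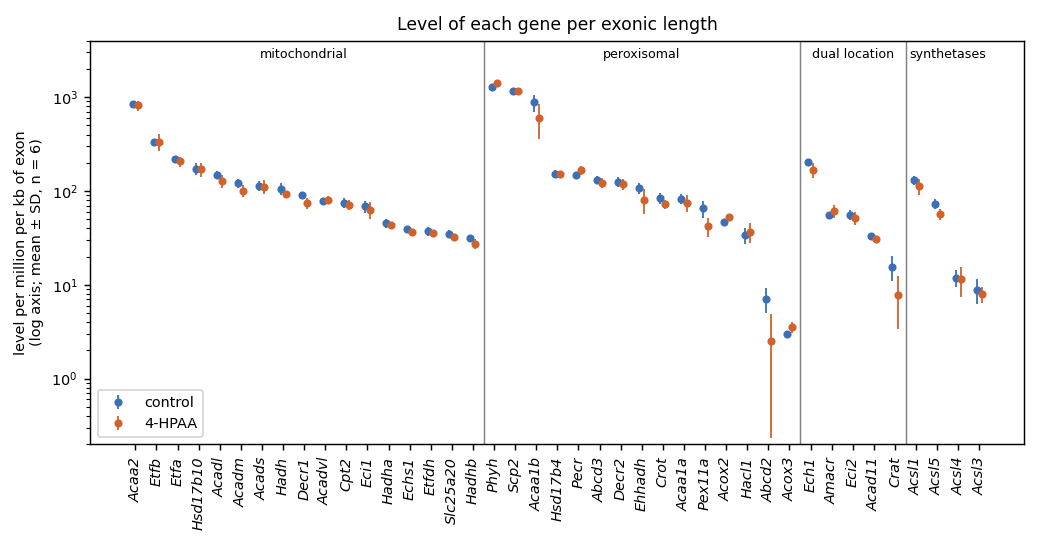
Levels per 1000000 counts and per kilobase of exon on a log axis, as mean and SD over 6 livers a group, by location class. Phyh, Scp2, Acaa1b and Acaa2 stand highest and Abcd2 and Acox3 lowest.

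Control replicate 6 departed from the other controls in these genes. It was the lowest control for Acadl (6130 against 7279 to 7829), Hadhb (4409 against 5175 to 5344), Ehhadh (5904 against 7699 to 8372), Pex11a (3058 against 5250 to 5967) and Acaa1b (24758 against 42365 to 48023). It also had the fewest estimated reads of the controls, 23954096, and 4-HPAA replicates 1, 2 and 5, with low levels of the same genes, had 22389551, 23359064 and 23766597. 4-HPAA replicate 3 was also low for Acadl (5874), Hadhb (4169) and Ehhadh (4938), and had the most estimated reads of its group, 25922067. Without control replicate 6 the median of the straight-chain group was −0.37 and 13 members were lower at an unadjusted p under 0.05 (limma). The share of all genes lower also rose in that fit, above the 7.56% found with every library. Whether depth or another property of these livers plays a part was not tested beyond the covariate.

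The mitochondrial genes varied together from liver to liver within the groups, and the peroxisomal genes less so. With each group's mean removed, the median pairwise correlation of log2 values over the 12 livers was 0.60 within the mitochondrial genes (136 pairs), 0.175 within the peroxisomal genes (105 pairs) and 0.41 between them (255 pairs). The median was −0.064 within the branched-chain group and −0.021 between it and the straight-chain group, and the lowest pair, Acads with Acsl4, was at −0.854. These are descriptions, since all genes of a liver come from the same library and share its depth. The closest pairs, Hadhb with Ehhadh at 0.959, Acaa1b with Crat at 0.955 and Decr1 with Acaa1b at 0.951, joined genes of different classes. The pairs that followed were of both kinds. Acadl with Hadhb at 0.943 and Acadm with Decr1 at 0.933 were both mitochondrial, and Acadl with Ehhadh at 0.939 was not. Decr2, Acaa1a, Acaa1b and Pex11a followed the mitochondrial mean at 0.921, 0.912, 0.903 and 0.891, and so did Hsd17b4 and Pecr of the branched-chain group, at 0.842 and 0.815. The lowest were Scp2 and Acsl4, both at −0.594, followed by Acox3 at −0.279, and Etfa, itself mitochondrial, was at −0.155.

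Genes next to these in the pathway gave the following values, to be read against the 7.56% of all genes that were lower and the 7.26% that were higher at an unadjusted p under 0.05. In the list of entry, regulation and first steps, 9 of 12 tested genes were negative and 4 were lower and 0 higher at an unadjusted p under 0.05, with a median of −0.22 (limma). Cpt1a, the entry enzyme of mitochondria, had counts from 13178 to 17006 in controls and from 12368 to 15098 with 4-HPAA, a log2 difference of −0.23 ± 0.08. Acacb, whose product malonyl-CoA restrains Cpt1a, was at −0.62 ± 0.19. Ppara itself was at −0.16 ± 0.13 and its coactivator Ppargc1a at −0.21 ± 0.19. With the depth covariate Cpt1a was at −0.135, Acacb at −0.596, Ppara at 0.007 and Ppargc1a at −0.189.

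Ketogenesis, which uses the acetyl-CoA made here, had 4 of 4 genes negative and 1 lower at an unadjusted p under 0.05, Acat1 at −0.20 ± 0.08. Acat1 was at −0.109 with the depth covariate. Among genes of branched-chain amino acid and odd-chain breakdown and of related dehydrogenases, 2 of 19 were lower at that p and 0 higher, namely Acad12 (−0.47 ± 0.16) and Acad10 (−0.38 ± 0.14), a share of 10.5%. They were at −0.21 and −0.14 with the depth covariate. Peroxisome biogenesis genes had 1 of 15 (6.67%) lower and 0 higher, Pex3 at −0.24 ± 0.08, with Pex19 at −0.16 ± 0.09 and a list median of −0.04. Other peroxisomal proteins had 1 of 27 (3.70%) lower and 1 higher, with a median of 0.01. The lower was Far1, a reductase for ether lipids, at −0.78 ± 0.36. The higher was Nudt7, a hydrolase of CoA, at 0.62 ± 0.21. Far1 had low counts, 71 to 96 in controls and 13 to 86 with 4-HPAA. Its difference ran from −0.95 to −0.42 with 1 library left out. With the depth covariate Pex3 was at −0.24, Pex19 at −0.023, Far1 at −1.05 and Nudt7 at 0.42. No gene of these lists passed after adjustment over all genes as fitted here (limma); with array weights Acad12 did, at an adjusted p of 0.0468.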

How the data were processed

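Per the labels' protocols, liver RNA was purified with a QIAGEN kit and read on an Illumina sequencer from directional mRNA libraries. The tools in the submitters' processing notes are edgeR, DESeq2 1.28.1, HTSeq, STAR, cutadapt and FastQC 0.11.9, with build GRCm38 and no role or order. The deposited unit is treated as a score: whole numbers that the authors obtained from counts by a scaling particular to each library. In the model used, such scaling marks low whole numbers at regular spacing. A factor below 1 makes some hold about double their neighbours' genes, and a factor above 1 leaves some nearly empty. The factors inferred from this spacing ran from 0.8494 (control replicate 5) to 1.128 (4-HPAA replicate 1). Reads per library were estimated by dividing each total by its factor. GENCODE M21 named 13203 of 13267 genes and left 64 unnamed; the table held 0 columns of other samples. Limma 3.58.1 in R 4.3.3 (trend, robust) was fitted on log2(value + 1) without covariates, keeping the 12720 genes that reached 10 in 6 or more libraries, after a test on simulated data, with Benjamini-Hochberg adjustment over all of them and a threshold of 0.05. Levels per length use all GENCODE exons of a gene. The members, classes and lists were chosen with earlier results of these data known. Genes given in full are, per class, the 3 of smallest p and the most abundant, the members higher at an unadjusted p under 0.05, both Acaa1 copies, 4 set neighbours and the 2 of smallest p in each neighbouring list, of which 2 are not reported here; Ehhadh, Crot, Hadha and Acsl4 were added after their values were seen. Promoter windows are from RefSeq (GRCm38.p6). Alternatives were pseudocounts, filters, scalings, limma settings, a replicate block, class limits and each library left out. Python 3.11.15 and matplotlib 3.10.9 made the figures.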

Additional observations from a re-analysis of the deposited data

Results flagged for a closer look

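In the 108 groups of 6 livers examined (41 members and 13 other genes, each in both groups), 11 had a liver far from the rest, by a gap above 0.625 of the group's whole range, and chance flags about 1 in 20 groups. Control replicate 6 was the lowest control for Acadl at 6130, Hadhb at 4409, Acaa1b at 24758, Ehhadh at 5904, Pex11a at 3058 and Cpt1a at 13178, and the highest for Acsl4 at 2176. 4-HPAA replicate 3 was the highest 4-HPAA liver for Acads at 8229 and Acad12 at 439, and the lowest for Scp2 at 86249. 4-HPAA replicate 1 was the lowest for Slc25a20 at 3340.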

How the results depend on the processing

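The count of members lower at an unadjusted p under 0.05 was 11, against 7.56% of all genes (limma). It stayed within 1.5 times under the other scalings, filters, pseudocounts, robust setting and array weights. The count was 5 with a replicate block, against 8.22% of all genes, and 3 with the depth covariate, against 5.41%. It was 6 to 13 with 1 library left out, where the share of all genes changed too. The labels do not say whether replicate numbers pair the livers across the groups, and the values do not settle it. Deviations of same-numbered livers correlated between −0.183 and 0.282, and 3 of 6 control livers correlated best with their own number. Members passing after adjustment (0) numbered 2 with array weights (Pex11a and Acsl5) and 0 to 2 with 1 library left out, the 2 (Abcd2 and Acsl5) without 4-HPAA replicate 4; of all genes, 1.09% passed with array weights and 1.52% without that library (limma). Members higher at an unadjusted p under 0.05 (3, against 7.26% of all genes) numbered 1 with median centring, against 5.75% (limma). They numbered 2 to 4 with 1 library left out, where the share of all genes changed too. The mitochondrial minus peroxisomal median (−0.005) was −0.037 with array weights, 0.058 with the depth covariate and −0.058 to 0.026 with 1 library left out. Signs turned as follows, and the cause was not tested. With the depth covariate, Cpt2 was at 0.082, Slc25a20 at 0.015, Acads at 0.155, Hadh at 0.006, Hadha at 0.047, Eci1 at 0.139, Eci2 at 0.006, Decr2 at 0.091, Etfdh at 0.025, Acaa1a at 0.066, Acaa2 at 0.042, Acsl3 at 0.052, Echs1 at 0.021, Scp2 at −0.044, Hacl1 at −0.032 and Ppara at 0.007. With array weights, Etfb was at −0.079, Hsd17b4 at −0.036, Hsd17b10 at −0.119 and Acsl4 at 0.157. Etfb, Hsd17b4 and Hsd17b10 were at −0.003, −0.013 and −0.020 with median centring, at −0.012, −0.021 and −0.028 with equal library totals, and at −0.006, −0.015 and −0.022 with equal upper quartiles, and Hsd17b10 was at −0.001 with TMM factors. With 1 library left out, ranges crossed 0 for Acads (−0.095 to 0.018), Etfb (−0.073 to 0.085), Etfdh (−0.072 to 0.006), Acaa2 (−0.068 to 0.023), Hsd17b4 (−0.036 to 0.031), Hsd17b10 (−0.075 to 0.054), Acsl3 (−0.169 to 0.007) and Acsl4 (−0.214 to 0.167).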
